A study of Mus musculus with 2 samples.

Results

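Among 7024 Foxp3+ regulatory T (Treg) cells, 91 carried several transcripts of the cell division machinery, and these cells form the class described here. Members were chosen by measured values: a cell was counted into the class when its unique molecular identifiers (UMIs, each 1 captured transcript) of 5 genes, Mki67, Top2a, Birc5, Cdk1 and Ube2c, summed to 3 or more. The class held 30 of 3634 control cells and 61 of 3390 rescued cells, and the other 6933 cells served as the comparison. The 5 genes chose the members, so their levels below are a description and support nothing.

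The study asked whether Treg cells can work under inflammation that is already established and reverse fatal autoimmune disease. It restored Foxp3 in diseased mice that lacked it, and later followed how the restored cells persist and what they express. The control library held cells of 5 pooled Foxp3DTR-GFP/y Cd4creERT2 mice, whose Foxp3 allele works throughout life and also encodes the diphtheria toxin receptor and GFP. The rescued library held cells of 4 pooled Foxp3LSL/y Cd4creERT2 mice, in which a floxed stop cassette silences Foxp3 until Cre removes it. All mice were C57BL/6 males labelled 7 months of age, had received 4-hydroxytamoxifen on postnatal day 14, and carried both Cre under the Cd4 gene and a Rosa26 reporter that makes tdTomato after recombination. Cre under Cd4 acts in conventional CD4 T cells and thymocytes as well as in Treg cells. TCRβ+CD4+CD8−NK1.1−GFP+Thy1.1− cells were sorted in 2 rounds from spleen and lymph node. There was 1 library per group, so no value between the groups has a replicate and no test was possible. The groups, the different Foxp3 alleles and the autoimmune disease of the rescued mice at treatment cannot be told apart. All intervals are 95% intervals that cover counting error only, and a gene was called different between groups of cells when its summed UMIs per 1000000 UMIs (CPM) differed at least 2-fold.

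Dividing cells first license their replication origins with the MCM helicase, then copy DNA under E2F-driven enzymes, and finally switch on mitotic cyclins, kinesins and kinetochore proteins. The late genes are held silent in resting cells by the DREAM complex, which sits at a promoter element named CHR. Treg cells in lymphoid organs divide slowly at rest and faster after activation, and an effector-like fraction renews itself outside the thymus.

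The CHR core reads TTTGAA, with TTCGAA as a variant that is its own reverse complement. The following stretches are printed because rule genes and other late cell cycle genes share these letters. Of the 5 rule genes 4 held TTTGAA on either strand within 250 bases before to 50 bases after the RefSeq start on GRCm38.p6. The same was true of 20.2% of the 27025 genes with such a window, and TTCGAA was in 1.80% of those genes. Each line shows 30 bases read on the gene's strand, the motif is in capitals, and its first base is counted from the annotated start at 0.
Mki67, at −116, chr7:135716478-135716507, minus strand: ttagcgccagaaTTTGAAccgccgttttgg
Top2a, the variant at −140, chr11:99024312-99024341, minus strand: ctaattggtttaTTCGAAaaggcggtcttt
Cdk1, at −15, chr10:69352910-69352939, minus strand: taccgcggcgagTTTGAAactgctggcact
Ube2c, reverse complement at −29, chr2:164769888-164769917, plus strand: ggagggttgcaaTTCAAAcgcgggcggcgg
Cdc20, at −18, chr4:118437344-118437373, minus strand: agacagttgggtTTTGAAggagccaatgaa
Ccnb2, at −167, chr9:70421704-70421733, minus strand: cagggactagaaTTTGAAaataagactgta

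Cdc20, the activator of the anaphase-promoting complex, and Ccnb2, cyclin B2, were not used by the rule, and Cdc20 is not put forward as a marker of the class. Of the lists of cell cycle genes, TTTGAA was present in 25 of 35 kinetochore, spindle and cytokinesis genes, in 7 of 16 mitotic cyclin and kinase genes and in 1 of 23 genes of DNA and nucleotide synthesis. CCAAT, read on both strands, was present in 13 of 16 mitotic cyclin and kinase genes and in 41.1% of all genes. The E2F-type letters TTTGGCGC were in 4 of 14 genes of origin licensing and in 0.585% of all genes. These matches describe the letters only and are no evidence that a factor binds there.

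Within the class, Mki67, which coats mitotic chromosomes, had 59 UMIs in control and 95 in rescued cells, and was detected in 16 of 30 and 42 of 61 members. Ube2c, the ubiquitin carrier of the anaphase-promoting complex, had 59 and 136 UMIs in 12 and 41 members. Top2a, the topoisomerase that untangles replicated DNA, had 68 and 45 UMIs in 18 and 22 members. Thus the gene that supplied most of the rule's UMIs was Top2a in control (30.4%) and Ube2c in rescued cells (36.5%). Birc5, a subunit of the chromosomal passenger complex, had 18 UMIs in 4 control members, 83.3% of them in 1 cell, and 90 UMIs in 25 rescued members. Cdk1, the mitotic kinase, was the rarest in rescued members, with 7 UMIs in 5 cells against 20 UMIs in 7 control cells. Taking both libraries, the class held 77.7% of all Birc5 UMIs and 73.9% of all Ube2c UMIs, but 39.9% of those of Mki67, 30.3% of Cdk1 and 29.5% of Top2a, so the last 3 were spread over many cells outside it.

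**Figure D1:**
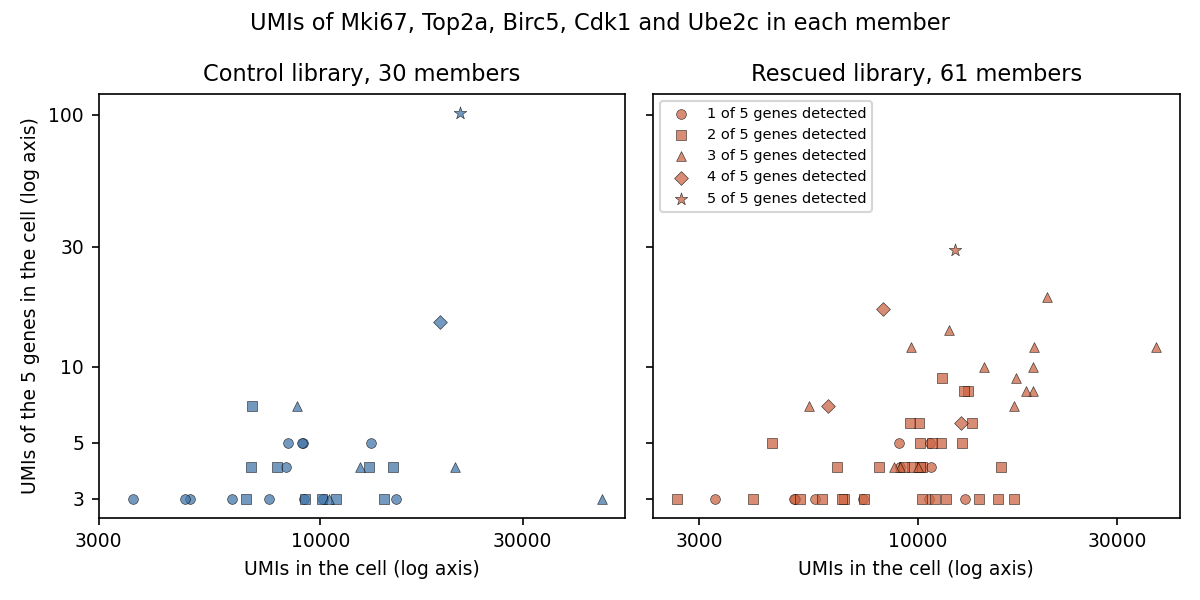
Each point is a cell of the class in the control or rescued library, with its total UMIs on the log horizontal axis and the summed UMIs of the 5 rule genes on the log vertical axis. Most members sit at sums of 3 to 5, and 1 control cell stands apart at 102.

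The class was shallow in the measure that made it. A sum of exactly 3 was held by 15 control and 20 rescued members, and the median sums were 3.5 and 4. Only 1 rule gene was detected in 24 members, while 2 were detected in 41 and all 5 in 2 members. The highest control member had 102 rule UMIs among 21309 UMIs in all, with 27 of Mki67, 26 of Top2a and 23 of Ube2c, and the next control member had 15. The highest rescued member had 29. The main values that rest on the control cell with 102 are given with and without it. Just inside the threshold, the 35 cells at a sum of 3 had a median of 7563 UMIs, and just outside it the 95 cells at a sum of 2 had 6393.

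The rescued library held a larger share of members than the control library, 1.80% (1.38 to 2.31) against 0.826% (0.558 to 1.18). Members were deep cells, with median totals of 9180.5 UMIs in control and 10232 in rescued cells, against 3731.5 and 3807 in the other cells, and a deeper cell reaches a fixed sum more easily. When every cell was thinned to 2000 UMIs and a sum of 2 or more was required, the shares were 0.336% (0.174 to 0.587) of 3569 control cells and 1.01% (0.702 to 1.41) of 3357 rescued cells, and the order of the libraries was kept. Thinned to 1000 UMIs with a sum of 2 or more, 9 cells of each library remained (0.248% and 0.265%), and no difference was detectable at that depth. The thinning to 2000 UMIs left out 65 control and 33 rescued cells that were shallower, none of them members.

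Within ranges of depth, the rescued share was higher in each, and the intervals overlapped in each. Below 5000 UMIs, 3 of 2900 control and 4 of 2465 rescued cells were members. From 8000 to 12000 UMIs the shares were 7.24% (3.67 to 12.6) and 11.7% (7.74 to 16.8). At 12000 UMIs or more they were 23.3% (11.8 to 38.6) and 27.8% (17.9 to 39.6). The pools came from different mice, and the spread between mice was not measured.

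**Figure D2:**
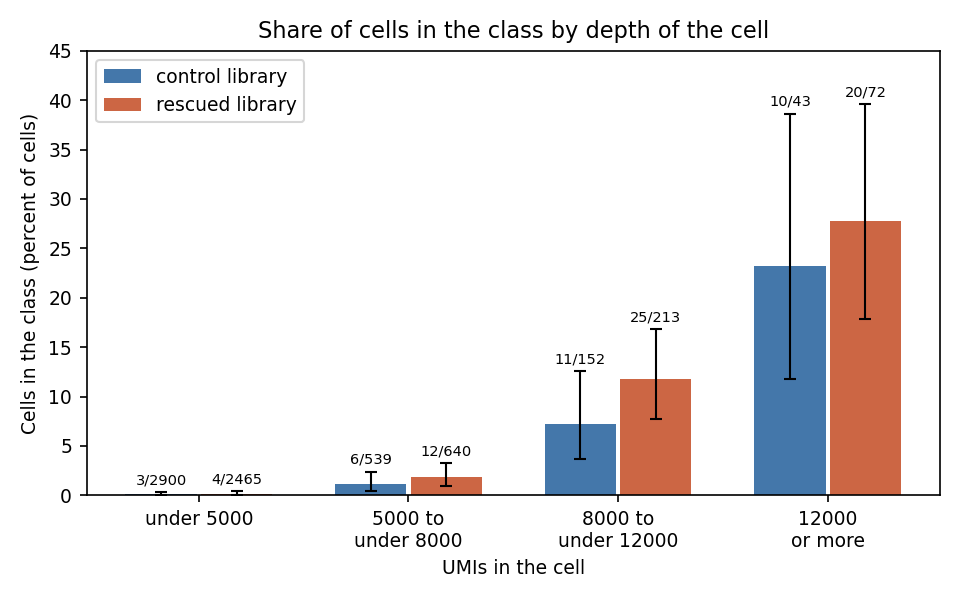
The share of cells in the class, in percent with exact binomial 95% intervals, is plotted by range of total UMIs for the control and rescued libraries. The shares go from 0.103% and 0.162% below 5000 UMIs to 23.3% and 27.8% at 12000 UMIs or more, with overlapping intervals in each range.

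Free RNA in a droplet can give single UMIs to cells that do not make a gene. Cells with 4 or more UMIs of Ly6c1 and Igfbp4, markers of resting Treg cells, were used as a population that should seldom divide. At least 1 rule UMI was present in 3.54% (1.99 to 5.77) of 424 such control cells and 7.04% (2.33 to 15.7) of 71 such rescued cells, at median depths of 4046 and 5082 UMIs, compared with 241 of 3210 and 399 of 3319 remaining cells at 3686 and 3812. The class rule itself was met by 3 of the 424, or 0.708% (0.146 to 2.05), against 0.826% (0.558 to 1.18) of all control cells. In control it was thus not seen to be met less often in these resting-marker cells. Of the 71 rescued cells 0 met it, where a limit of 3 counts allows up to 4.23%. Among all cells, 7.04% of control and 11.9% of rescued cells had at least 1 rule UMI, so a single UMI of these genes was not read as division.

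To see whether the members looked like dividing cells in genes that did not choose them, each cell was given a synthesis level (UMIs of origin licensing and DNA synthesis genes per 10000) and a mitosis level (mitotic cyclins, kinases, kinetochore, spindle and cytokinesis genes, without the 5 rule genes, per 10000). The 99th percentiles of the other cells, 27.2 and 36.6, served as limits. Of the 91 members, 6 were above both limits, 6 above the synthesis limit only, 9 above the mitosis limit only, and 70 above neither. Cell cycle genes outside the rule thus passed a limit in 21 members and in none of the remaining 70. The name cycling was supported cell by cell for the 21, and these limits could not decide it for the 70. They came from other cells with a median of 3760 UMIs, where counting error is wider, against 10110 in members. Of the 70, 13 had a rule sum of 6 or more. Their summed mitosis level was 20.9 (18.9 to 23.0) per 10000, against 15.2 in other cells of 8000 UMIs or more. Among other cells of 8000 UMIs or more, 379 of 414 were above neither limit. These groups of members were formed after their values were seen, and the synthesis and mitosis genes that set the limits, Ccnb2, Cenpa, Stmn1, Mcm3, Rrm2 and the tubulins among them, had to differ between the groups, so their values are descriptions.

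**Figure D3:**
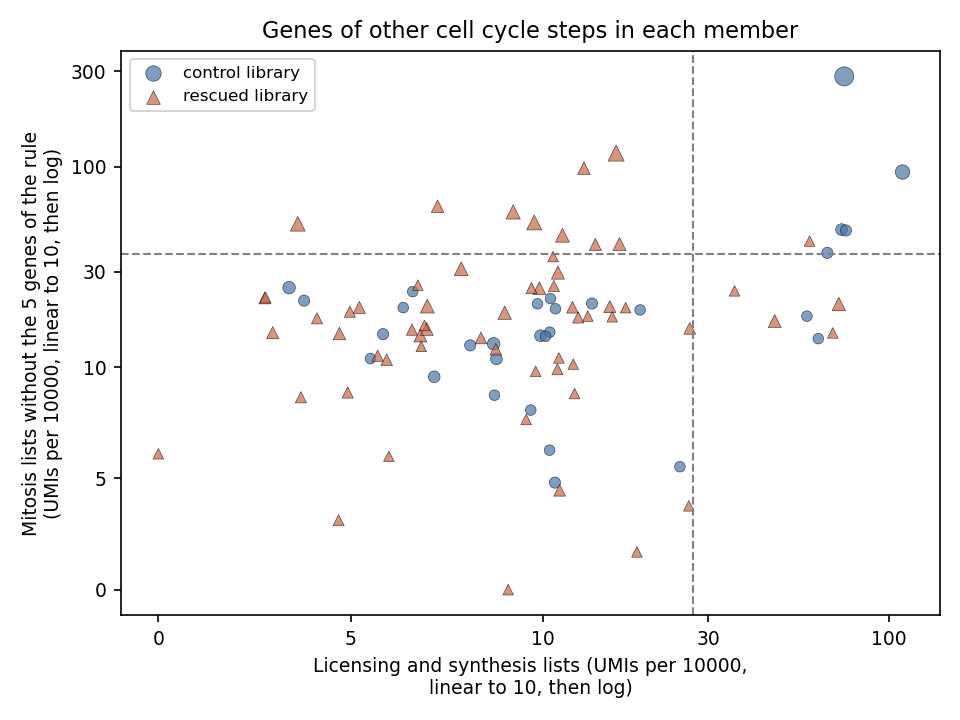
Each point is a cell of the class, with its synthesis level on the horizontal and its mitosis level on the vertical axis, both in UMIs per 10000, and lines at the 99th percentiles of other cells (27.2 and 36.6). Control members above a limit lie to the right, rescued members mostly above the mitosis line alone.

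The libraries differed in where these members fell. In control, 5 members were above both limits, 2 above the synthesis limit only and 0 of 30 above the mitosis limit only, where a limit of 3 counts allows up to 10%. In rescued cells, 1 was above both, 4 above the synthesis limit only and 9 above the mitosis limit only. The share above neither was 76.7% of control and 77.0% of rescued members.

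The 9 rescued members above the mitosis limit alone were marked outside the limit's own genes by Hmgb2, a chromatin protein that is high late in the cell cycle. It stood at 55.2 (50.7 to 60.1) per 10000, against 3.63 in other cells of 8000 UMIs or more, and was detected in all 9. They were also rich in effector transcripts, with Lgals1, galectin-1, at 35.7 (32.1 to 39.6) against 5.58. Of the genes that set the limit, Cenpa, the centromeric histone, stood at 8.34 (6.63 to 10.4) and Ccnb2 at 5.80 (4.39 to 7.51), and each was detected in all 9. Mcm3, a subunit of the MCM helicase, was at 0.610 (0.224 to 1.33) in these cells.

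The 6 members above both limits differed from them in growth and effector genes, which set no limit. Ncl, nucleolin, stood at 25.7 (22.6 to 29.04) per 10000 against 9.79 in the deep other cells, and Lgals1, at 2.35 (1.49 to 3.53), lay below the 5.58 of the deep other cells. Of the genes that set the limits, Mcm3 stood at 5.52 (4.15 to 7.20) and was detected in all 6, and the tubulins Tuba1b and Tubb5 stood at 20.3 (17.6 to 23.4) and 28.5 (25.3 to 32.1). Rrm2, the regulated subunit of ribonucleotide reductase, had 13 of its 18 UMIs in 1 cell. Their Ccnb2, Cenpa and Ube2c UMIs came from 1 cell, the control cell with a rule sum of 102, which also held 151 of their 212 Hmgb2 UMIs.

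The 6 members above the synthesis limit alone held Mcm3 at 4.12 (2.89 to 5.71) and Mcm7 at 3.89 (2.70 to 5.44) per 10000, with 0 UMIs of Ccnb2 or Birc5 (0 to 0.422 per 10000 for each). The 70 members above neither limit were compared with the 379 other cells of 8000 UMIs or more that were also above neither. They were higher in Hmgb2, 9.74 (9.04 to 10.5) against 3.53, in Stmn1, the microtubule regulator stathmin, 1.54 (1.27 to 1.85) against 0.107, and in Ccnb2, 0.595 (0.433 to 0.799) against 0.0279. Ccnb2 was detected in 20 of the 70 members and in 6 of the 379 other cells. They were lower in Ncl, 4.99 (4.50 to 5.53) against 8.58. Their Mcm3, 0.257 (0.155 to 0.402) against 0.376 (0.318 to 0.441), did not differ beyond the intervals. Their effector genes stood at 97.3 (95.1 to 99.6) per 10000 in sum, against 39.1 (38.5 to 39.7).

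Against all other cells, 82 of 6901 genes tested were at least 2-fold higher in the class (1.19%) and 155 were lower (2.25%). The filter admitted 9 of these genes only through their UMIs in the class, Stmn1, Lgals3, Lmna, Knstrn, Cks1b, Cenpw, Nrm, Il1rl1 and Hells, and all 9 were higher, as the filter all but fixed. Without them 73 of 6892 genes were higher (1.06%) and 155 lower (2.25%), and the counts by list given next leave them out. No gene counted in the lists of cell cycle steps was lower. Combined ratios also mix the libraries unequally, since rescued cells gave 65.9% of the UMIs of the class and 49.6% of those of the other cells, so values by library are given beside several of them.

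Mitotic cyclins and kinases had 2 genes tested, and both were higher. Cdc25b, the phosphatase that activates Cdk1, was 2.27 higher on the log2 scale, and Cks2, a small partner of cyclin-dependent kinases, 1.56. In control Cks2 was 2.31 higher, or 1.24 without the cell of 102, and in rescued cells 0.97. The list's summed level was 2.72 (2.51 to 2.92) higher in control, 1.98 (1.71 to 2.24) without that cell, which held 100 of its 229 UMIs, and 2.34 higher in rescued cells. Ccnb2 was below the level set for testing and had 115 UMIs in 30 members.

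Among genes of origin licensing, 5 of 10 were higher: Mcm3 by 1.81, Mcm5 by 1.63, Mcm7 by 1.16, Mcm6 by 1.14 and Gmnn, the licensing inhibitor geminin, by 1.04 on the log2 scale. Their summed log2 difference was 1.75 in control and 0.61 in rescued members. DNA and nucleotide synthesis had 4 of 13 higher, namely Lig1 (1.79), the ligase of the lagging strand, Rrm1 (1.5), Tyms (1.47), thymidylate synthase, and Dut (1.15), with sums of 1.72 in control and 0.44 in rescued cells. Pcna, the sliding clamp, was 0.26 higher. Without the cell of 102 the control sums were 1.70 and 1.54. Most control UMIs of these 2 lists, 851 of 1108, were in the 7 members above the synthesis limit. Chromatin and histone genes had 3 of 10 higher, kinetochore, spindle and cytokinesis genes 1 of 5, Cenpa (1.23), and anaphase-promoting genes 0 of 5. The kinetochore sum in control was 1.46 with the cell of 102 and 0.76 (0.65 to 0.87) without it, and the chromatin sum 0.98 and 0.57. G1/S regulators had 1 of 5 higher, the transcription factor E2f2 (1.35), and condensin and lamin genes 1 of 6, Lmnb1 (1.69).

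Stmn1, the first of the genes admitted through the class, had a summed CPM of 350 in control and 282 in rescued members, against 15.8 and 9.02 in the other cells, and 45 of 91 members had a UMI. The control level was 198 without the cell of 102. Hmgb2, which passed through the other cells too, had 1275 and 1688 CPM against 349 and 357, or 897 in control without that cell, and was detected in 88 members. Its log2 difference was 1.87 in control, 1.36 without the cell, and 2.24 in rescued cells. Knstrn, a kinetochore-associated spindle protein, Cenpw, a centromere protein, and Cks1b, another kinase partner, were 2.85, 2.67 and 2.71 higher. With other cells weighted to the members' depths, Cks1b was 1.33 higher and Stmn1 3.82.

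A second group of higher genes belonged to effector cells. Of 21 effector and suppressor genes tested through the other cells, 5 were higher and 1, the chemokine receptor Ccr9, was lower at −1.97. S100a6 and S100a4, calcium-binding proteins of motile cells, had CPM of 2167 and 1622 in control members against 286 and 349 in other control cells, and of 3040 and 2236 in rescued members against 580 and 529. Lgals1 had 1588 CPM in control and 2475 in rescued members against 317 and 418, and was detected in 86 of 91. Klrg1, an inhibitory receptor of terminal effector cells, was 2.66 higher in control and 1.55 in rescued cells on the log2 scale. Among genes admitted through the class, Lgals3, galectin-3, was found in 25 members and Il1rl1, the interleukin-33 receptor, in 26. Beyond the list, Ccr2, a chemokine receptor, was 1.94 higher in control and 2.24 in rescued cells, Anxa2 2.50 and 3.11, and Gna15 2.15 and 2.22. Lmna, the nuclear lamin A, was 0.95 (−0.52 to 2.11) higher in control and 3.45 in rescued cells.

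The effector sum was 1.78 (1.72 to 1.84) higher in control members on the log2 scale and 1.51 (1.47 to 1.54) in rescued members, but it was carried by few genes. S100a6, S100a4 and Lgals1 held 7097 of its 9147 UMIs in the class, and without them the sum was 0.80 (0.69 to 0.90) higher in control and 0.04 (−0.04 to 0.12) in rescued cells. The median over the 23 genes tested was 0.31, 0.20 over the 21, and −0.012 over the 23 with other cells weighted to the depths of the members, against −0.05 and −0.09 over all genes. Member by member the sum ran from 7.92 to 252 per 10000 in control, with a median of 55.3 against 11.5 in the other control cells. In rescued members it ran from 12.4 to 340 with a median of 82.1, against 22.3. The ranges of members and other cells overlapped in both libraries.

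**Figure D4:**
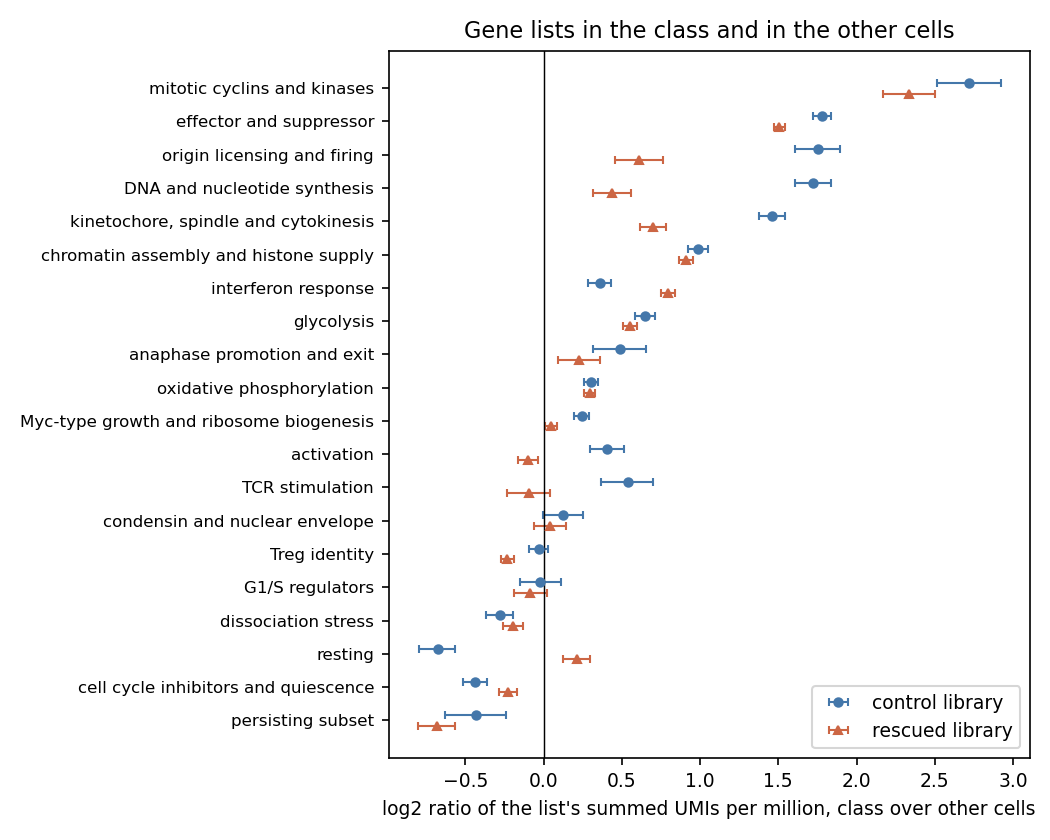
For each gene list, the log2 ratio of its summed CPM in the class over that in the other cells is plotted with 95% counting intervals, for control and rescued cells. Mitotic cyclins and effector genes stand above 0 in both libraries, with 2.72 and 2.34 and 1.78 and 1.51, and licensing is at 1.75 and 0.61, where 1 control cell raises the mitotic value from 1.98 and 3 genes carry most of the effector sum.

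Genes of the resting state were lower in 6 of 13 tested with both libraries combined. Their summed log2 difference of −0.33 became 0.14 when other cells were weighted to the members' depths. By library the sum was −0.68 (−0.79 to −0.56) in control but 0.21 (0.12 to 0.30) in rescued members. Igfbp4, an insulin-like growth factor binding protein, had 28.7 CPM in control members against 125 in other cells, while 0 of 61 rescued members had a UMI, where a limit of 3 counts allows a share of members with a UMI of up to 4.92%, against 28.5 CPM in the other rescued cells. Ly6c1, a surface marker of resting Treg cells, had 25.8 and 8.91 CPM against 138 and 26.5, log2 differences of −2.42 (−3.55 to −1.49) in control and −1.57 (−3.03 to −0.44) in rescued cells. The combined differences of Ly6c1 and Igfbp4, −2.50 and −2.98, were −0.98 and −1.63 with depth weighting. Dapl1 had 1 UMI in the whole class. Bach2, a transcription factor that restrains effector differentiation, was −2.0 in control and −0.49 in rescued cells, and Satb1, a chromatin organizer, −1.72 and −0.32, all on the log2 scale of class over other cells. Klf2 and S1pr1, which guide recirculation through lymph, had differences of −0.33 and −0.65 in control and of 1.02 and 1.07 in rescued cells. Spry1, an inhibitor of receptor signalling, was −2.23 with 5 UMIs, and the heat shock genes Hspa1a and Hspb1 were −2.16 and −2.63.

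Several lists showed no gene past 2-fold. Myc-type growth genes had 0 of 27, glycolysis 0 of 13 with a median log2 difference of 0.30, and oxidative phosphorylation 0 of 24 with 0.34. Of 19 cell cycle inhibitors and quiescence genes 1 was lower, Pik3ip1, an inhibitor of PI3 kinase, at −1.80 in control and −0.39 in rescued cells. Of 16 Treg identity genes 1 was lower, Lrrc32, the anchor of latent TGF-beta, at −1.29. Among 9 interferon genes Ifi27l2a was higher at 1.15, and Ifit3 and Usp18 were lower at −1.56 and −1.45. Of 8 genes of T cell receptor stimulation, 2 were higher, Il1r2 and Penk, and of 9 genes of the stress response to tissue dissociation 3 were lower, including Jun at −1.44. The median over all tested genes was −0.05.

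Between the libraries, the class differed in few genes. Of 1917 genes tested within it, 12 were at least 2-fold higher in rescued members (0.626%) and 12 lower (0.626%), while the same genes gave 18 higher (0.939%) and 9 lower (0.469%) in the other cells. These ratios compare 2 libraries and not the conditions.

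Foxp3 had 57.3 CPM in control and 436 in rescued members, a log2 difference of 2.93 (2.28 to 3.66), and 2.53 in the other cells, so a difference of like size was present outside the class. Itgae, the integrin CD103, went the same way, with 54.4 and 295 CPM and a difference of 2.44 (1.76 to 3.20) against 2.03. Cd74, the invariant chain of MHC class II, had 206 and 629 CPM and Ly6a, Sca-1, 347 and 941 CPM, with other-cell differences of 1.13 and 1.09. Ccr2 had 123 and 284 CPM, and 0.90 in the other cells.

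Ccnb2 and Arl4c had ratios unlike those of the other cells, although for Ccnb2 the other cells held few UMIs. Ccnb2 had 54.4 CPM in 4 control members and 143 CPM in 26 rescued members, a log2 difference of 1.39 (0.67 to 2.18) against −1.03 in the other cells. Of its control UMIs, 73.7% came from the cell with a rule sum of 102, and without that cell the difference was 3.22. Arl4c, a small GTPase, had 71.6 and 187 CPM and a difference of 1.38 (0.76 to 2.07), against 0.03 in the other cells. H2-DMa, which loads peptides onto MHC class II, had 1.46 (0.68 to 2.33) against 0.45.

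Among the lower genes, Tbc1d4, a regulator of glucose transporter traffic, had 275 CPM in control and 43.1 in rescued members, a log2 difference of −2.68 (−3.33 to −2.06), against −0.56 in the other cells. Ccl5, a chemokine, had 330 and 53.4 CPM, and 60.9% of its control UMIs were in 1 cell. Odc1, ornithine decarboxylase, had 347 and 123 CPM and a difference of −1.49, against 0.40 elsewhere. Mcm7 and Mcm3 had 169 and 181 CPM in control and 66.8 and 77.2 CPM in rescued members, with differences of −1.34 and −1.23 against −0.18 and −0.07. Tuba1b, with 645 and 180 CPM, had −1.84, or −1.22 without the cell of 102 and −0.25 without cells over 15000 UMIs, and Tubb5, with 1218 and 564 CPM, had −1.11, or −0.72 without it. Tcf7, Ccr7 and Bcl2, which are high in resting T cells, were lower by like amounts inside the class and outside it, at −1.56 and −1.40 for Tcf7, −1.44 and −1.28 for Ccr7, and −1.41 and −0.96 for Bcl2. Evl, an actin regulator, had −1.35 against −0.44 in the other cells.

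**Figure D5:**
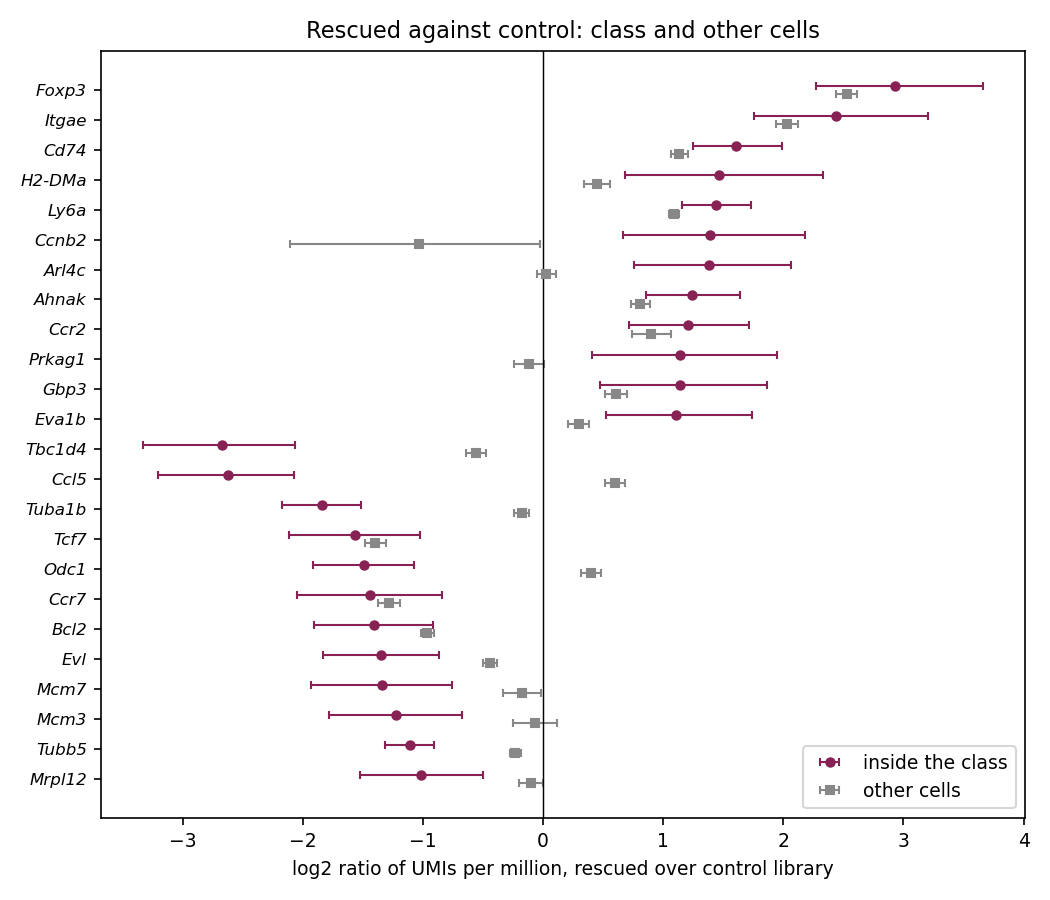
Named genes are plotted by the log2 ratio of rescued over control CPM inside the class and in the other cells, with 95% counting intervals. Foxp3 lies at 2.93 and 2.53, whereas Ccnb2 lies at 1.39 inside the class and −1.03 outside it, the latter from 13 rescued and 27 control UMIs.

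By list, summed origin licensing genes were 1.12 lower and DNA synthesis genes 1.16 lower in rescued than in control members on the log2 scale, with 0.02 and 0.12 in the other cells. Their combined sum was −1.15, and −1.02 without the cell of 102. Above the synthesis limit were 7 of 30 control and 5 of 61 rescued members, and those 7 held 851 of 1108 control UMIs. The median member had 10.3 UMIs of these lists per 10000 in control and 9.70 in rescued cells. Members above neither limit had 10.8 (9.56 to 12.3) and 8.98 (8.17 to 9.85) in sum. The mitosis lists were −0.74, and −0.03 without that cell, so that difference rested on 1 control cell. Without cells over 15000 UMIs, it was 0.39. Chromatin genes had 0.07, and 0.49 without the cell of 102. Effector genes were 0.36 higher in rescued members and 0.64 higher in the other rescued cells, and the activation list 0.52 and 1.03.

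The tdTomato reporter marks cells, and descendants of cells, that recombined around postnatal day 14. It had 464 CPM in control members against 388 in other control cells, and 684 against 662 in rescued cells. The log2 differences were 0.26 (0.02 to 0.48) and 0.05 (−0.09 to 0.18), and the first was −0.11 among members with UMIs of 2 or more rule genes. A UMI was present in 28 of 30 control and 54 of 61 rescued members, against 62.7% and 55.3% of the shallower other cells. After thinning to 2000 UMIs these shares were 60.0% (40.6 to 77.3) against 44.4% in control, and 55.7% (42.4 to 68.5) against 42.4% in rescued cells. Flow cytometry in the paper gave far more tdTomato-positive Treg cells in rescued than in control mice. The summed CPM and the cells with 4 or more tdTomato UMIs, 468 of 3634 control and 809 of 3390 rescued cells, had that order. The share of cells with any UMI had the opposite order, so a tdTomato UMI was not read as recombination in that cell. The paper itself split control cells by a cutoff on imputed tdTomato levels.

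Turned round, the class was more frequent among cells with more tdTomato UMIs, which are a transcript count and not a fate call. In control it held 2 of 1347 cells without a tdTomato UMI, 11 of 1819 with 1 to 3 and 17 of 468 with 4 or more, at median depths of 3508, 3774 and 4744 UMIs. In rescued cells it held 7 of 1496, 18 of 1085 and 36 of 809, at 3603, 3874 and 4570 UMIs. The rescued share was higher in each range, and the intervals overlapped in each. At 4 or more UMIs the shares were 3.63% (2.13 to 5.75) in control and 4.45% (3.14 to 6.11) in rescued cells. The paper reported comparable expression of cell cycle genes in rescued cells and in control cells it called tdTomato-positive. At 2000 UMIs a cell, with the thinned sum of 2 as the rule and 2 ranges of tdTomato, 7 of 1981 control cells without a tdTomato UMI (0.142 to 0.727%) and 5 of 1588 with one (0.102 to 0.733%) were members. In rescued cells these were 14 of 1927 (0.398 to 1.22%) and 20 of 1430 (0.856 to 2.15%), and the intervals overlapped in both libraries, so no order by tdTomato was detectable there.

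Foxp3 itself did not differ between members and other cells beyond counting error in either library with the rule as set. Control members had 57.3 CPM against 81.5, a log2 difference of −0.51 (−1.22 to 0.13), and rescued members 436 against 470, −0.11 (−0.28 to 0.06). In control the difference was −1.25 (−2.70 to −0.13) with a rule that leaves out Top2a and −1.29 (−2.50 to −0.30) among members with 2 or more rule genes. A Foxp3 UMI was found in 13 of 30 control and 57 of 61 rescued members. At 2000 UMIs it was found in 6 of 30 control members against 14.6% of other control cells, and in 55.7% against 52.7% in rescued cells.

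Markers of other cell types were low in the class, though a UMI of some lists was more frequent in these deeper cells. Of 10 B cell genes 6 were at 0, including Ms4a1, Cd79a and Pax5, and 56 of the 67 UMIs were of Cd79b. A B cell UMI was present in 40% of control and 32.8% of rescued members, against 18.4% and 21.1% of the other cells, and the list's summed level per 10000 in a member ran from 0 to 2.97 and from 0 to 4.72. The summed level over all members, 0.544 and 0.713, was close to the 0.578 and 0.647 of the other cells.

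Of 8 myeloid genes 7 were at 0, including Lyz2, Itgam and Tyrobp, and the sum ran from 0 to 8.97 and from 0 to 7.54, all of it Cst3. Of 7 genes of CD8 T or NK cells 5 were at 0, including Cd8a and Klrb1c, and the sum ran from 0 to 10.6 and from 0 to 3.42. Within it the cytotoxic granule gene Nkg7 had 36 UMIs in control and 9 in rescued members, and its part in the difference of Ccl5 was not tested. All 4 thymocyte genes had a UMI in the class, 31 in all, of which Dntt had 1 and Ptcra 2, and the sum ran from 0 to 2.52 and from 0 to 2.53, with a level over all members of 0.344 and 0.282 against 0.482 and 0.280 in the other cells. Haemoglobin genes were at 0. Genes named mt- took a median of 8.28% of UMIs in control and 7.16% in rescued members, against 9.45% and 9.10% in the other cells. Among the 3.5% of cells with the highest doublet scores were 2 of 30 control and 4 of 61 rescued members.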

How the data were processed

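The authors aligned 10x 3′ version 3 reads with Cell Ranger 3.0 to GRCm38 with the tdTomato sequence added, and deposited whole-number UMI counts for 7024 cells and 16098 genes. Only these counts were used, and the normalized table (Seurat 3.1.5) was not used here. The study states filters of 1000 molecules and 5% mitochondrial transcripts, yet by genes named mt- 98.1% of control and 97.1% of rescued cells exceeded 5% in the deposited counts. Each cell's library was read from its name, and its depth is its UMI total. The libraries shared 3 barcodes, none in the class.

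Counts were summed over the cells of each group, divided by that group's UMIs to give CPM, and compared as log2 ratios with exact conditional Poisson intervals. Combined ratios of class over other cells used both libraries together. Genes were tested against other cells with at least 200 UMIs in all and 50 in the class or 500 among other cells, 9 of them passing only through the class and all of these higher there, and between libraries with 100 UMIs in the class. Shares have exact Clopper-Pearson intervals, and a share of 0 is given with the limit that 3 counts allow. No p-value was computed, since each group has 1 library. The named genes were the 15 highest and 10 lowest ratios against other cells and the 12 highest and 12 lowest between libraries, leaving out the rule genes, mitochondrial, ribosomal, immunoglobulin and T cell receptor genes, unnamed models and tdTomato, plus members of the lists, Foxp3 and tdTomato. The members and lists were chosen with earlier results of these data known. Doublets were not removed: Scrublet in scanpy 1.11.5 marked 2 control cells and 1 rescued cell, too few to have worked, and only its ranks were used. Python 3.11.15, numpy 2.4.6 and scipy 1.17.1 were used, and the scripts were tested on simulated data.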

Additional observations from a re-analysis of the deposited data

Results flagged for a closer look

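A closer look is due where the difference between the class and the other cells pointed one way in control and the other way in rescued cells, with both counting intervals clear of 0. The difference between the libraries was not tested in any of these, since each group has 1 library. The activation list was 0.41 higher in the class on the log2 scale in control and stood at −0.10 in rescued cells. The resting list stood at −0.68 in control and 0.21 in rescued cells, and the list of CD8 T or NK cells at 0.83 and −0.82, the latter resting on Nkg7 with 36 and 9 UMIs. Among genes, Ccl5 stood at 1.38 in control and −1.84 in rescued cells, with 60.9% of its UMIs in control members in 1 cell. Odc1, the first enzyme of polyamine synthesis, stood at 1.38 and −0.52, Tbc1d4 at 0.53 and −1.58, and Tuba1b at 1.22 and −0.45. These control values also rested on few cells. The 5 control members above both limits held 187 of 225 Tuba1b and 78 of 121 Odc1 UMIs of the control members. For Tbc1d4, 31.25% of the UMIs in control members were in 1 cell.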

How the results depend on the processing

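No fit with a replicate block or a paired analysis was possible because neither library has a numbered partner in the other group. Of the main values, 113 under the alternatives stayed within their counting error or within 1.5 times, 58 moved and 1 reversed. Of list sums and single genes, 1056 stayed, 367 moved and 22 reversed, and 16 had no value because a group of cells was at 0. The rescued share of members was 1.39 to 3.89 times the control share under the alternatives listed next and the other rules run with them, but with cells thinned to 1000 UMIs and a sum of 2 the shares were 0.248% and 0.265%, from 9 cells each, and thinned to 2000 with a sum of 3 they were 0.0560% and 0.238%. The restriction to members with 2 or more rule genes, the counts without genes admitted by the class alone (73 higher and 155 lower), and the values without the highest or deepest control cell, were chosen after seeing the data. The cause of the changes was not tested.

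The control share was 1.90% at a rule sum of 2, 0.220% at 5, 0.336% thinned to 2000 UMIs, 1.79% thinned to 1000, 0.468% without Top2a, 0.550% without Ube2c, 1.21% without cells over 10% mitochondrial UMIs and 0.468% with 2 or more rule genes. In the first 7 of these settings the rescued share was 3.45%, 0.856%, 1.01%, 2.48%, 1.33%, 1.15% and 2.49%.

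Each count is given of the genes tested under that setting, a number that changed with it. Genes at least 2-fold higher in the class than in other cells numbered 82 of 6901 with the rule as set. They numbered 131 of 6944 at a rule sum of 5 and 128 of 4540 with the thinned rule. With minimums of 100 and 300 UMIs in the class they numbered 43 of 1917 and 17 of 510. Genes lower in the class numbered 45 of 6848 at a sum of 2, 442 of 6944 at 5 and 406 of 4540 thinned. They numbered 274 of 6919 without Mki67, 350 of 6930 without Top2a and 281 of 6837 without cells over 15000 UMIs. Without cells over 10% mitochondrial UMIs there were 102 of 5761. With minimums of 50, 100 and 300 UMIs there were 12 of 3592, 5 of 1917 and 1 of 510. The rule as set gave 155 of 6901. Genes higher in rescued members numbered 19 of 3067 at a sum of 2, 57 of 801 at 5 and 2 of 96 thinned. They numbered 19 of 1765 without Birc5, 22 of 1284 without Ube2c and 7 of 1214 without cells over 15000 UMIs. With minimums of 50 and 300 UMIs there were 52 of 3592 and 4 of 510. With 2 or more rule genes there were 26 of 1508, and the rule as set gave 12 of 1917. Genes lower in rescued members numbered 27 of 801 at a sum of 5, 0 of 96 thinned and 23 of 1416 without Mki67. Without cells over 15000 UMIs there were 6 of 1214. With minimums of 50 and 300 UMIs there were 53 of 3592 and 2 of 510. With 2 or more rule genes there were 24 of 1508, and the rule as set gave 12 of 1917.

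For tdTomato, the log2 ratio of class over other cells in control was 0.63 at a sum of 2, 0.68 with the thinned rule, 0.59 and 0.66 with cells thinned to 2000 and 1000 UMIs, and −0.11 with 2 or more rule genes. In rescued cells it was 0.47 with the thinned rule, 0.30 without cells over 15000 UMIs, and 0.40 and −0.30 thinned to 2000 and 1000 UMIs. For Foxp3 it was −1.25 (−2.70 to −0.13) without Top2a, 0.45 (−0.87 to 1.5) thinned to 2000 UMIs and −1.29 (−2.50 to −0.30) with 2 or more rule genes in control, and 0.10 at a sum of 2 and −0.37 thinned to 1000 UMIs in rescued cells.

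The Myc-type growth list, class over other cells, reversed to −0.055 at a sum of 5, −0.012 thinned, −0.19 without Top2a, −0.11 without cells over 15000 UMIs and −0.43 with other cells weighted by depth. In control it was −0.17 without cells over 15000 UMIs, and in rescued cells −0.26 at a sum of 5, −0.028 without Mki67, −0.30 without Top2a, −0.0088 without Cdk1 and −0.025 without cells over 15000 UMIs. The activation list reversed to −0.091 in control at a sum of 5, to 0.070 at a sum of 2 and 0.32 thinned in rescued cells, and to −0.074 weighted by depth, where the resting list came to 0.14. With the thinned rule Hspa1a came to 0.72, and rescued over control to −0.095 for the effector list, 0.40 for Ccl5, 2.20 for Bcl2 and 0.23 for Evl. Without cells over 15000 UMIs the mitosis lists came to 0.39.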
